A study of Mus musculus with 9 samples.

Results

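The genes of glucose breakdown and of the response to low oxygen were followed in mouse embryonic fibroblasts (MEFs) with 2, 1 or 0 working copies of Oga, the gene for O-GlcNAcase, the enzyme that takes the O-GlcNAc sugar off proteins. The list held 36 genes, and the arrays have probe sets that name 1 gene alone for 18193 genes in all. Members were taken from the probe sets whose platform annotation carries a member's symbol and no other, while 7 that carry it beside other symbols were left out. Control probe sets aside, 63 probe sets were found for 32 genes, and all 32 passed the filter on low values with at least 1 probe set. The others were Gapdh, Bnip3l, Gpi1 and Eno1. Gapdh is named singly only by 3 control probe sets of the array, and the probe sets of Bnip3l each name several genes. No probe set carried the symbol Gpi1 or Eno1 in the annotation used, and other spellings of them were not searched.

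RNA came from 3 cultured lines, each from a female embryo (D12.5 in the labels): a wild-type (WT, line E8), an Oga heterozygous (Het, line E4) and an Oga knockout (KO, line E7) line. The design text states that floxed Oga males on a C57 background were mated with females that carry Cre recombinase under the MMTV promoter, and that the heterozygous offspring were intercrossed to give the embryos. Each genotype is 1 line measured on 3 Affymetrix arrays that the design text calls technical replicates, so every p-value here measures the spread between arrays of a line, and genotype cannot be told apart from other differences between the lines. The cultures were grown in DMEM, and their oxygen and glucose levels are not given in the sources used here. Oga itself read 11.89, 11.93 and 11.95 on the WT arrays, 11.16 on each Het array, and 6.03, 6.08 and 6.08 on the KO arrays on the log2 scale of the deposited values, the order the labels give. Arrays correlated at r = 0.997 or more within a line and at 0.989 to 0.996 between lines. All 12 fibroblast markers were above the filter in these cultures, and so were all 19 macrophage markers found. Of 9 endothelial markers 3 (Kdr, Eng and Esam) were above it and 6 below, Pecam1 and Cdh5 among them. RNA quality was read from the Gapdh controls, whose 3' minus 5' difference ran from -0.088 to -0.069 in WT, -0.0077 to 0.0041 in Het and -0.099 to -0.036 in KO arrays, so the Het arrays stood apart.

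Glycolysis splits glucose into pyruvate in the cytosol, and lactate dehydrogenase turns that pyruvate into lactate. Fructose 6-phosphate, one of its first intermediates, also feeds the hexosamine pathway that makes the sugar donor for O-GlcNAc. When oxygen is plentiful, prolyl hydroxylases of the Egln family mark the alpha subunits of the hypoxia-inducible factors (HIF) for destruction. When oxygen is low these subunits persist, pair with Arnt and switch on genes of glucose uptake, glycolysis, mitochondrial turnover, acid handling and blood vessel growth.

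In the KO line the members were mostly lower than in WT, and the hypoxia targets of the mitochondrion and of lactate export were among the lowest. A gene is said here to have risen or fallen when its limma adjusted p was below 0.05, and to be called when the difference also reached 2-fold, a log2 difference of 1. Of the 32 members 22 fell, where 31.5% of all 12962 genes tested fell, and 2 rose, where 21.6% of all genes rose; in either direction the shares were 75% of members and 53.1% of all genes. Called lower were 6 members, namely Ndufa4l2, Aldoc, Bnip3, Ankrd37, Car9 and Slc16a3, beside 2.58% of all genes called lower and 3.56% called in either direction. None of the members was called higher by limma, nor reached 2-fold at an unadjusted p below 0.05, beside 0.988% of all genes called higher. The median member difference was -0.21, against -0.03 over all genes tested. The members were chosen with earlier results of these data known, so these shares are a description. Between Het and WT 11 members passed the adjusted p threshold, which is 34.4% of the members and the same share as of all genes (34.4%), and 0 were called.

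**Figure D1:**
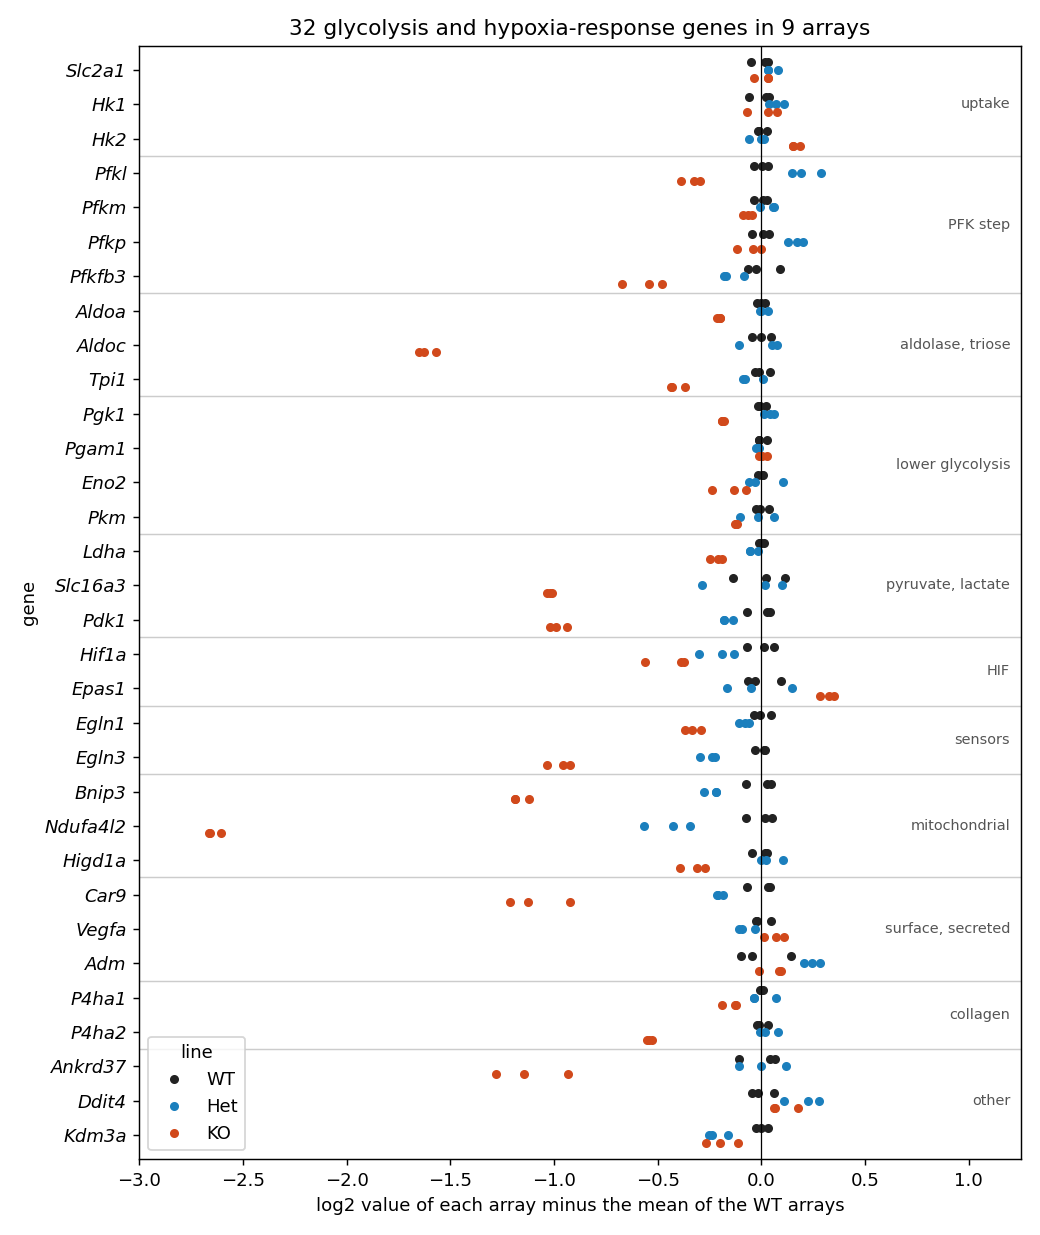
Each point is 1 array, placed by its log2 value minus the mean of the 3 WT arrays, for the 32 members tested, in order of their role in the pathway (WT black, Het blue, KO orange). The KO points of Ndufa4l2, Aldoc, Bnip3, Ankrd37, Car9 and Slc16a3 lie near or beyond -1, apart from both other lines, while those of Slc2a1, Hk1 and Pgam1 lie among the WT points.

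The stretch of DNA before the start site is shown for 5 of the called genes. HIF binds a short core there in many of its targets. Ndufa4l2, also called, had no entry in the promoter source used. Slc2a1 is shown beside the 5 as a member whose KO and WT arrays overlapped at the probe set used for it. Each sequence covers the 250 bases before the annotated start, written 5' to 3' along the gene, from the RefSeq promoter table of GRCm38.p6, where 33 of 36 members were matched by symbol and the outermost start of each gene was taken. Capitals mark the cores searched, ACGTG and GCGTG, on either strand, so that CACGT and CACGC mark the opposite strand. A palindrome such as CACGTG counts on both strands, and matches may overlap.
Bnip3, chr7:138909507-138909756, minus strand: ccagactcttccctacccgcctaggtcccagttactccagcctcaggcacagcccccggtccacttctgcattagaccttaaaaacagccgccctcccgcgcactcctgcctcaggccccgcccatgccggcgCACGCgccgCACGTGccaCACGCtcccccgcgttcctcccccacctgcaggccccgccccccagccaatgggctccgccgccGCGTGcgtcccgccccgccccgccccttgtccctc
Ankrd37, chr8:45999851-46000100, minus strand: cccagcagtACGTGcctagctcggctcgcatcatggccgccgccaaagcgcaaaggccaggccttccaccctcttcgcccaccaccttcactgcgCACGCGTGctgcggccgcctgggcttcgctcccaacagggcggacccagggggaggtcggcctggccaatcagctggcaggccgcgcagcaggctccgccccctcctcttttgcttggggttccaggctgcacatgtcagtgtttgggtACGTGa
Car9, chr4:43506776-43507025, plus strand: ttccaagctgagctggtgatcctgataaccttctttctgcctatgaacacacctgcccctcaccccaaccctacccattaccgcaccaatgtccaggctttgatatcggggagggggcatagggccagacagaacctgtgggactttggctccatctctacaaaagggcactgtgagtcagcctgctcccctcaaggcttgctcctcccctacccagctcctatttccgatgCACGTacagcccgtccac
Slc16a3, chr11:120948817-120949066, plus strand: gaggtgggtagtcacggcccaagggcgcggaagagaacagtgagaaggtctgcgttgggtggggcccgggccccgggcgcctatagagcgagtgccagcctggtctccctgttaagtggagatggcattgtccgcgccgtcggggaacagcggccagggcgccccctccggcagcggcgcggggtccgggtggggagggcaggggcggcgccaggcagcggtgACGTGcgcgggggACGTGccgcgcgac
Aldoc, chr11:78322823-78323072, plus strand: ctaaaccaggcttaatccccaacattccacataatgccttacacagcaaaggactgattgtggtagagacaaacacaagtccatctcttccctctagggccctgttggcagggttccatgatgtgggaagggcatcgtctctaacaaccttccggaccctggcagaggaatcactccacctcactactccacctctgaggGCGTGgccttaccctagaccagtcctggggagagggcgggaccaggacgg
Slc2a1, chr4:119108495-119108744, plus strand: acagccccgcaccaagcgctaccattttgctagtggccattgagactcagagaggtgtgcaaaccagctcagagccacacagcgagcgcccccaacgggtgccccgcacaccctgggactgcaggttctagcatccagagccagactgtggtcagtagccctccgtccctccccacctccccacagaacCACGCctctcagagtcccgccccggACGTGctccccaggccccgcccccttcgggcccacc
Bnip3 held 5 matches, the nearest beginning 35 bases before the start, and Ankrd37 held 4, of which the nearest began 6 bases before it. Slc16a3 held ACGTG at both 27 and 14 bases before its start, and Car9 held it on the opposite strand, beginning 18 bases before the start. In Aldoc the only match was GCGTG, 50 bases before the start, and Slc2a1 held a match at 61 and another at 36 bases. ACGTG occurred in 17 of the 30 tested members with a promoter (56.67%) and in 21.27% of the 10439 genes tested on the arrays that have one, and either core occurred in 80% and 55.4%. These matches are a description of the letters only: members that were called and members that were not, such as Ldha with 5 matches of ACGTG, both carried them.

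At the probe sets used for the genes, glucose uptake and its first phosphorylation showed little difference between the lines. The main glucose transporter gene of fibroblasts, Slc2a1, read 10.82, 10.90 and 10.89 in WT, 10.95, 10.90 and 10.90 in Het and 10.83, 10.90 and 10.90 in KO arrays, so all 3 lines overlapped. Its KO minus WT difference was 0.01 with a 95% interval of -0.08 to 0.10 on the log2 scale. Another Slc2a1 probe set differed by -0.24 in KO (adjusted p = 0.0038) and by -0.17 in Het (adjusted p = 0.034), by limma over all probe sets. At this probe set neither line overlapped WT. The last Slc2a1 probe set lay at -0.05 in KO. The hexokinase gene Hk1, whose product traps glucose in the cell, read 11.12, 11.03 and 11.11 in WT, 11.12, 11.16 and 11.19 in Het and 11.12, 11.02 and 11.16 in KO arrays and differed by 0.01 (interval -0.09 to 0.12). Hk2, the inducible hexokinase, read 10.49, 10.45 and 10.44 in WT, 10.47, 10.40 and 10.46 in Het and 10.61, 10.61 and 10.65 in KO arrays. It rose in the KO line by 0.16 ± 0.037 (SE; adjusted p = 0.0034), the only glycolysis member to do so, while the Het arrays overlapped WT.

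At the phosphofructokinase step, the main control point of glycolysis, the liver-type subunit Pfkl read 12.13, 12.16 and 12.09 in WT, 12.28, 12.32 and 12.42 in Het and 11.81, 11.74 and 11.83 in KO arrays. The 3 lines did not overlap, and Het was the highest: Pfkl fell by 0.34 in KO (adjusted p = 1.1e-04) and rose by 0.21 in Het (adjusted p = 0.0056) against WT. Another Pfkl probe set lay at -0.38 in KO and 0.13 in Het, and only its KO difference passed among all probe sets. The last lay at -0.02 in KO and 0.27 in Het, and only its Het difference passed. Pfkfb3, which makes the fructose bisphosphate that activates phosphofructokinase, read 9.20, 9.09 and 9.05 in WT, 8.94, 9.04 and 8.95 in Het and 8.64, 8.58 and 8.44 in KO arrays. It fell in KO by 0.57 ± 0.059 (SE; adjusted p = 1.1e-05), and its Het difference of -0.14 did not pass (adjusted p = 0.081). The muscle subunit Pfkm (-0.07) and the platelet subunit Pfkp (-0.05) did not pass in KO, with intervals of -0.15 to 0.02 and -0.15 to 0.04.

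Aldolase splits the 6-carbon sugar, and its genes differed by unlike amounts. Aldoc, the isozyme best known from brain, read 10.13, 10.22 and 10.17 in WT, 10.06, 10.25 and 10.22 in Het and 8.52, 8.55 and 8.61 in KO arrays. All KO arrays lay more than 2-fold below every array of the other lines, which overlapped each other. The fall was 3.06-fold against WT (log2 difference -1.62 ± 0.053, SE, adjusted p = 9.6e-10) and 3.07-fold against Het, while Het minus WT was 0.00 with an interval of -0.11 to 0.12. Aldoa, the common isozyme, read 13.94, 13.96 and 13.92 in WT, 13.94, 13.93 and 13.98 in Het and 13.74, 13.73 and 13.74 in KO arrays. It fell 1.15-fold in KO (-0.20, adjusted p = 5.0e-04). Of its other probe sets, those at -0.30 and -0.17 in KO passed by limma over all probe sets. Those at -0.09 and -0.08 did not. The glial marker Gfap also differed in KO (-1.88), as did the glial lipid carrier Fabp7 (-0.78), while the other glial marker Sox10 rose by 0.68, and their part in the Aldoc difference was not tested. Tpi1, which interconverts the triose phosphates, read 13.36, 13.43 and 13.38 in WT, 13.30, 13.31 and 13.40 in Het and 12.96, 12.96 and 13.02 in KO arrays and fell in KO by 0.41 (adjusted p = 1.0e-05). Its other probe sets lay at -0.30 and -0.09.

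The lower steps of glycolysis fell by small amounts or did not pass. Pgk1, the first enzyme of the pathway to yield ATP, read 14.06, 14.02 and 14.03 in WT, 14.09, 14.07 and 14.05 in Het and 13.84, 13.84 and 13.85 in KO arrays, a fall of 0.19 in KO (adjusted p = 9.0e-04). The KO arrays lay below all others by this small margin, and all 3 Pgk1 probe sets were lower, from -0.29 to -0.19. The neuronal enolase gene Eno2 read 7.85, 7.85 and 7.83 in WT and 7.77, 7.60 and 7.71 in KO arrays, with Het at 7.81, 7.78 and 7.95, a fall of 0.15 in KO (adjusted p = 0.037), and the pyruvate kinase gene Pkm fell by 0.12 (adjusted p = 0.041). Both lost this pass in most of 19 other settings, Eno2 in 11 and Pkm in 12. The mutase gene Pgam1 differed by 0.01, with an interval of -0.07 to 0.08. Gapdh, the dehydrogenase often used as a reference gene, read 14.54, 14.55 and 14.53 in WT, 14.50, 14.52 and 14.55 in Het and 14.51, 14.50 and 14.48 in KO arrays at its middle control probe set, and it was not tested because control probe sets were left out.

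The exit from glycolysis split into a small and 2 large falls. Ldha, which makes lactate, read 13.99, 14.00 and 14.02 in WT, 13.95, 13.95 and 13.99 in Het and 13.79, 13.76 and 13.81 in KO arrays, and fell in KO by 0.22 (adjusted p = 3.8e-04). Slc16a3, the transporter that exports lactate from cells with high glycolysis, read 9.80, 9.89 and 9.63 in WT, 9.49, 9.79 and 9.87 in Het and 8.75, 8.76 and 8.74 in KO arrays. WT and Het overlapped and KO stood below both, by 2.03-fold against WT (-1.02 ± 0.091, SE, adjusted p = 3.2e-06) and by 0.97 on the log2 scale against Het. This call rests on a margin smaller than its error: without WT replicate 2 the difference was -0.97, with quantile normalization it was -0.99, and against Het it reached -1.08 without Het replicate 1. Pdk1 encodes a kinase that inhibits pyruvate dehydrogenase, the mitochondrial enzyme that turns pyruvate into acetyl-CoA. Pdk1 read 10.09, 9.99 and 10.10 in WT, 9.88, 9.88 and 9.92 in Het and 9.07, 9.04 and 9.12 in KO arrays. The 3 lines did not overlap: Pdk1 fell by 0.98 ± 0.043 (SE; adjusted p = 9.4e-09) in KO, just short of 2-fold, and by 0.16 in Het (adjusted p = 0.013). Its other probe sets past the filter were lower in KO by -1.36 and -0.79. In Het they disagreed with it, at -0.11 and 0.18, the last with all Het arrays above all WT arrays (adjusted p = 0.057 among all probe sets), and the Het fall was lost in 4 of 19 other settings.

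At the probe sets used for the genes, the transcription factor subunits themselves moved in opposite directions in KO. Hif1a, the oxygen-regulated subunit of the factor that drives glycolysis genes, read 12.99, 12.91 and 13.03 in WT, 12.84, 12.79 and 12.67 in Het and 12.59, 12.60 and 12.42 in KO arrays. The lines formed an order with no overlap, and Hif1a fell by 0.44 ± 0.062 (SE; adjusted p = 1.2e-04) in KO and by 0.21 in Het (adjusted p = 0.025), the latter lost when WT replicate 1 or 3 or Het replicate 2 or 3 was left out. Epas1, the related subunit HIF-2 alpha that endothelial cells make in abundance, read 8.82, 8.79 and 8.94 in WT, 8.68, 8.80 and 9.0 in Het and 9.20, 9.13 and 9.18 in KO arrays. It rose in KO by 0.32 ± 0.072 (SE, adjusted p = 0.0030), while Het overlapped WT. The other Epas1 probe set had a mean of 6.224, just under the filter value of 6.225. There KO and WT overlapped, with a difference of 0.02 (adjusted p = 0.88 by limma over all probe sets), so the Epas1 rise rests on 1 probe set. Of the 3 endothelial markers tested Eng rose in KO (0.23), and Kdr (0.02) and Esam (0.04) did not pass; their part in the Epas1 difference was not tested. These arrays measure RNA, and HIF alpha subunits are controlled chiefly as proteins, which were not measured.

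Both oxygen sensors on the list fell. Egln3, a prolyl hydroxylase that is itself a HIF target, read 8.90, 8.85 and 8.90 in WT, 8.66, 8.64 and 8.59 in Het and 7.93, 7.85 and 7.96 in KO arrays. The 3 lines again did not overlap, with falls of 0.97 ± 0.042 (SE; adjusted p = 7.5e-09) in KO and 0.25 in Het (adjusted p = 9.6e-04). Its second probe set was also lower, by -0.75 in KO and -0.30 in Het. Egln1, the hydroxylase that does most of the sensing in normal oxygen, read 10.88, 10.86 and 10.94 in WT, 10.78, 10.81 and 10.83 in Het and 10.60, 10.52 and 10.56 in KO arrays and fell in KO by 0.33 (adjusted p = 3.3e-05). In Het its difference of -0.08 did not pass (interval -0.17 to 0.01).

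Genes that refit mitochondria for low oxygen fell in KO in all 3 cases tested, Bnip3l being untested, and one of them, Ndufa4l2, had the largest difference of the 32 members. Ndufa4l2, a mitochondrial protein gene that lowers respiratory chain activity in hypoxia, read 10.21, 10.17 and 10.08 in WT, 9.59, 9.73 and 9.81 in Het and 7.49, 7.55 and 7.49 in KO arrays. The lines did not overlap, and Ndufa4l2 fell 6.25-fold in KO (-2.64 ± 0.058, SE, adjusted p = 6.2e-11) and 1.36-fold in Het (-0.45, adjusted p = 2.2e-04). Bnip3, a receptor that sends mitochondria to autophagy, read 12.47, 12.59 and 12.57 in WT, 12.27, 12.33 and 12.33 in Het and 11.35, 11.42 and 11.35 in KO arrays. It showed the same order, falling 2.24-fold in KO (-1.17 ± 0.044, SE, adjusted p = 3.1e-09) and 1.18-fold in Het (adjusted p = 0.0022). Higd1a encodes a hypoxia-induced protein of the inner membrane. Higd1a read 12.07, 12.09 and 12.02 in WT, 12.06, 12.17 and 12.08 in Het and 11.75, 11.67 and 11.79 in KO arrays. It fell in KO by 0.32 (adjusted p = 1.2e-04), while its Het difference of 0.04 did not pass. Its other probe sets lay at -0.51 and -0.32 in KO. In Het they lay at -0.15 and -0.17, with all Het arrays below all WT arrays, and neither passed by limma over all probe sets.

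Surface and secreted targets did not move together. Car9, a carbonic anhydrase that handles acid outside the cell, read 7.91, 8.01 and 8.02 in WT, 7.80, 7.77 and 7.76 in Het and 6.77, 6.85 and 7.06 in KO arrays. The lines were apart, and Car9 fell 2.12-fold in KO (-1.09 ± 0.066, SE, adjusted p = 1.4e-07) and by 0.20 in Het (adjusted p = 0.036). The Het fall was lost in 7 of 18 other settings, with adjusted p up to 0.11: with no filter or a 20% filter, and without WT replicate 2 or 3 or any 1 of the Het arrays. Vegfa, the chief growth factor for blood vessels, read 10.20, 10.13 and 10.13 in WT, 10.05, 10.12 and 10.06 in Het and 10.23, 10.27 and 10.17 in KO arrays, with WT and KO overlapping and an interval of -0.03 to 0.16 for KO minus WT. In Het it differed by -0.08, which did not pass. The other Vegfa probe set differed by -0.26 in Het (adjusted p = 0.028 by limma among all probe sets) and by 0.07 in KO. Adm, which encodes the vessel-relaxing peptide adrenomedullin, read 10.12, 10.36 and 10.17 in WT, 10.46, 10.43 and 10.50 in Het and 10.21, 10.30 and 10.31 in KO arrays. Its KO minus WT difference did not pass (0.06, interval -0.08 to 0.19), and it rose in Het by 0.24 (adjusted p = 0.010), where its other probe set lay at -0.05 and the mean of both did not pass.

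Among the remaining targets Ankrd37, an ankyrin repeat protein gene and HIF target, read 7.50, 7.35 and 7.53 in WT, 7.35, 7.46 and 7.58 in Het and 6.31, 6.18 and 6.53 in KO arrays. WT and Het overlapped, and KO was 2.17-fold below WT (-1.12 ± 0.087, SE, adjusted p = 9.7e-07) and 2.18-fold below Het. The KO mean of 6.34 is little above the filter value of 6.22 and 1 KO array, at 6.18, lies under it. P4ha2, a subunit of the enzyme that hydroxylates collagen prolines, read 12.21, 12.22 and 12.27 in WT, 12.25, 12.23 and 12.32 in Het and 11.69, 11.71 and 11.68 in KO arrays and fell in KO by 0.54 ± 0.039 (SE; adjusted p = 5.0e-07). Its relative P4ha1 read 12.52, 12.52 and 12.53 in WT and 12.40, 12.33 and 12.40 in KO arrays, with Het at 12.49, 12.49 and 12.60, a fall of 0.15 in KO (adjusted p = 0.012). The histone demethylase gene Kdm3a read 9.92, 9.94 and 9.97 in WT, 9.78, 9.70 and 9.69 in Het and 9.83, 9.68 and 9.74 in KO arrays, and it fell by 0.19 in KO (adjusted p = 0.0048) and by 0.22 in Het (adjusted p = 0.0047). Ddit4, an inhibitor of mTOR signalling, read 11.75, 11.68 and 11.64 in WT, 11.80, 11.92 and 11.97 in Het and 11.75, 11.76 and 11.87 in KO arrays and rose in Het by 0.20 (adjusted p = 0.015), while its KO difference of 0.10 did not pass.

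Both arms of the list held falls in KO. Of 17 glycolysis and pyruvate members 11 fell and 1 rose, with 2 called lower and a median difference of -0.19. Of 15 hypoxia members 11 fell and 1 rose, with 4 called lower and a median of -0.33. Over all genes 31.5% fell, 21.6% rose and 2.58% were called lower in this comparison. Quantile normalization and median centring left 91.3% and 90.9% of the members that passed on the lower side, against 91.7% as deposited. Macrophage markers fell in the same comparison: all 19 were lower, 18 of them called, with a median of -1.75, and their summed level ran from 16.02 to 16.06 in WT, 15.69 to 15.76 in Het and 14.24 to 14.31 in KO arrays on the log2 scale. Whether fewer cells of a type or less RNA per cell lies behind a bulk difference cannot be told apart here, and the part of macrophage RNA in the members' falls was not tested. The 10 skeletal muscle markers tested rose, 8 of them called, and 6 of 11 cell division genes fell (31.5% of all genes), with a median of -0.14. Fibroblast markers had a median of -0.08, with the receptor gene Pdgfra called lower (-2.55).

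**Figure D2:**
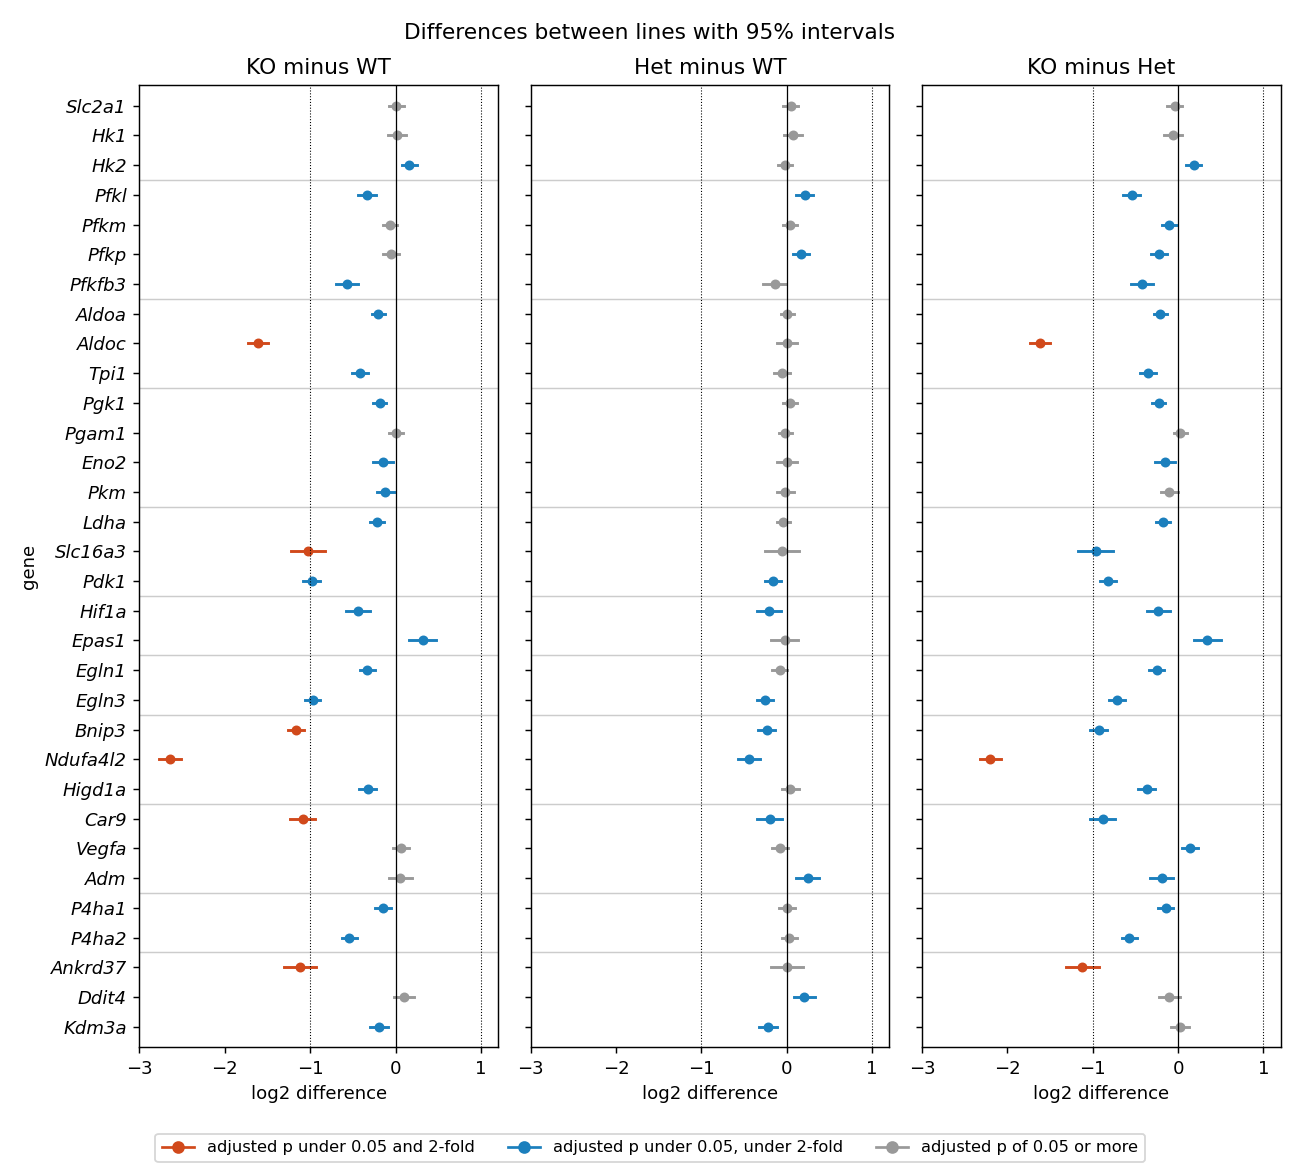
Points are log2 differences between lines for the 32 members, bars are 95% intervals from the limma fit of all 9 arrays, and dotted lines mark 2-fold (orange: adjusted p under 0.05 and 2-fold; blue: adjusted p under 0.05 alone; grey: neither). KO minus WT runs from -2.64 for Ndufa4l2 to 0.32 for Epas1, while Het minus WT stays between -0.45 and 0.24.

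The line with 1 working copy differed less from WT, and its arrays are those that stood apart in the control probe sets: the actin 3' minus 5' difference too ran from 0.093 to 0.12 in Het, 0.060 to 0.082 in WT and 0.052 to 0.087 in KO arrays, and its part in the Het differences was not tested. There 7 members fell, where 21% of all genes fell: Ndufa4l2 (-0.45), Egln3 (-0.25), Bnip3 (-0.24), Kdm3a (-0.22), Hif1a (-0.21), Car9 (-0.20) and Pdk1 (-0.16). The members that rose were 4, where 13.4% of all genes rose: Adm (0.24), Pfkl (0.21), Ddit4 (0.20) and Pfkp (0.17). All but Pfkl, Pfkp and Pdk1 belong to the hypoxia arm, of which 6 of 15 fell and 2 rose, against 1 and 2 of 17 in the glycolysis arm; the arms were not tested against each other. None of the members reached 2-fold in either direction by limma, also at an unadjusted p below 0.05, beside 0.201% of all genes called lower and 0.054% called higher, and the member median was -0.02 (-0.01 over all genes). With each array centred on its median 9 fell and 3 rose, so 75% of those that passed were lower, against 63.6%. Of the 11 members that passed, 5 did so with the same sign in every other setting tried (Ndufa4l2, Egln3, Bnip3, Kdm3a and Pfkl), and 6 lost the pass or turned sign in at least 1 (Hif1a, Car9, Pdk1, Adm, Ddit4 and Pfkp). Without WT replicate 3, 7 passed: Hif1a, Car9, Pdk1 and Ddit4 did not. Of the 19 macrophage markers 15 fell in Het as well, 0 of them called, and their median was -0.35.

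Set against Het, the KO line was again mostly lower for these genes. Here 23 members fell, where 28.6% of all genes fell, and 3 rose (Epas1, Hk2 and Vegfa), where 23.7% of all genes rose and 52.3% passed in either direction. Ndufa4l2 (4.59-fold), Aldoc (3.07-fold) and Ankrd37 (2.18-fold) were called lower, beside 1.37% of all genes, and 0 were called higher by limma or at an unadjusted p, beside 0.625%. Bnip3 (-0.93), Car9 (-0.88) and Pdk1 (-0.82) fell short of 2-fold here, and the member median was -0.22. Vegfa rose by 0.14 (adjusted p = 0.015), a pass lost with quantile normalization and without KO replicate 2. The other Vegfa probe set rose by 0.34 (adjusted p = 0.0063 by limma among all probe sets). Of the 26 that passed, 19 did so with the same sign in every other setting, and Pfkm, Pfkp, Eno2, Hif1a, Vegfa, Adm and P4ha1 did not. This comparison shares its KO arrays with KO against WT, so the like values are not separate evidence. Macrophage markers fell between these lines too, 17 of 19 called, with a median of -1.38.

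Probe sets of one gene did not always give one value. Of the 32 members 15 had several probe sets past the filter, and in KO minus WT, by limma over all probe sets, 0 of these had probe sets that passed in opposite directions. Hif1a spread most: its 4 probe sets gave -1.05, -0.77, -0.44 and -0.18 in KO. The Hif1a probe set at -1.05 read 10.18, 9.91 and 10.03 in WT, 9.42, 8.94 and 8.87 in Het and 9.35, 8.84 and 8.76 in KO arrays, so that Het (-0.96) and KO overlapped at this probe set, while Het lay between the other lines at the one used for the gene. In Het minus WT, Pfkp gave 0.17, 0.27 and -0.40, the last with an adjusted p of 8.9e-04 among all probe sets, so its rise there depends on the probe set. In KO minus Het, 2 members counted as fallen had probe sets that passed in opposite directions: Pfkp (-0.22 and 0.32) and P4ha1 (-0.15 and 0.44). P4ha1 read 11.69, 11.62 and 11.55 in WT, 11.08, 10.83 and 11.04 in Het and 11.53, 11.40 and 11.34 in KO arrays at its second probe set, a Het difference of -0.64 where the other gave 0.00. Which transcripts or alleles these probe sets detect was not tested.

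**Figure D3:**
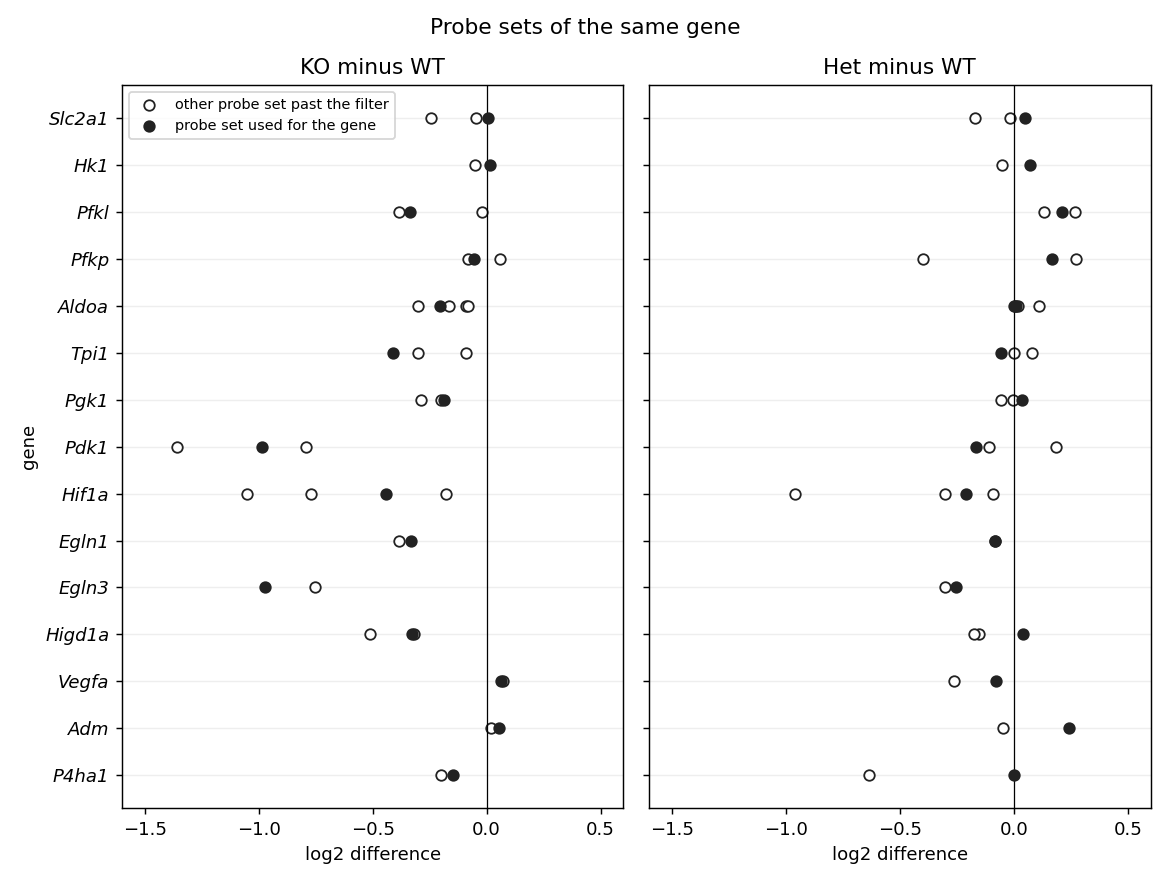
Log2 differences of KO minus WT (left) and Het minus WT (right) for every probe set past the filter of the 15 members with more than 1; filled points mark the probe set used for the gene. The 4 Hif1a points run from -1.05 to -0.18 on the left, and those of Pfkp lie on both sides of 0 on the right.

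Other genes of the same pathways gave a mixed picture. They were listed by pathway, with earlier results of these data known. Of 32 other glycolysis and pyruvate genes 13 fell and 3 rose in KO against WT, with 0 called and a median of -0.04, beside 31.5% of all genes that fell, 21.6% that rose and 2.58% called lower. The largest falls there were in Hk3 (-0.87), a hexokinase of myeloid cells, and in Pdp1 (-0.66), the phosphatase that opposes Pdk1. Of 15 other genes of oxygen sensing 4 fell and 2 rose, with 0 called: Eloc (0.48), a partner of Vhl, and Cited2 (0.44), which competes with HIF for its coactivators, rose, and Vhl itself fell by 0.22. Of 42 other hypoxia-response genes 22 fell and 11 rose, with a median of -0.24. Called lower were Igfbp3 (-1.66), a binding protein of insulin-like growth factors, Selenbp1 (-1.38), whose KO mean of 6.00 is under the filter value, and the mitochondrial adenylate kinase gene Ak4 (-1.07). Called higher, beside 0.988% of all genes, was Edn1 (1.22), which encodes endothelin. In Het against WT, Angptl4, a lipase inhibitor gene induced by hypoxia and by fatty acids, was the only gene of these 3 lists called (-1.61), and its KO difference of -0.92 was smaller.

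**Figure D4:**
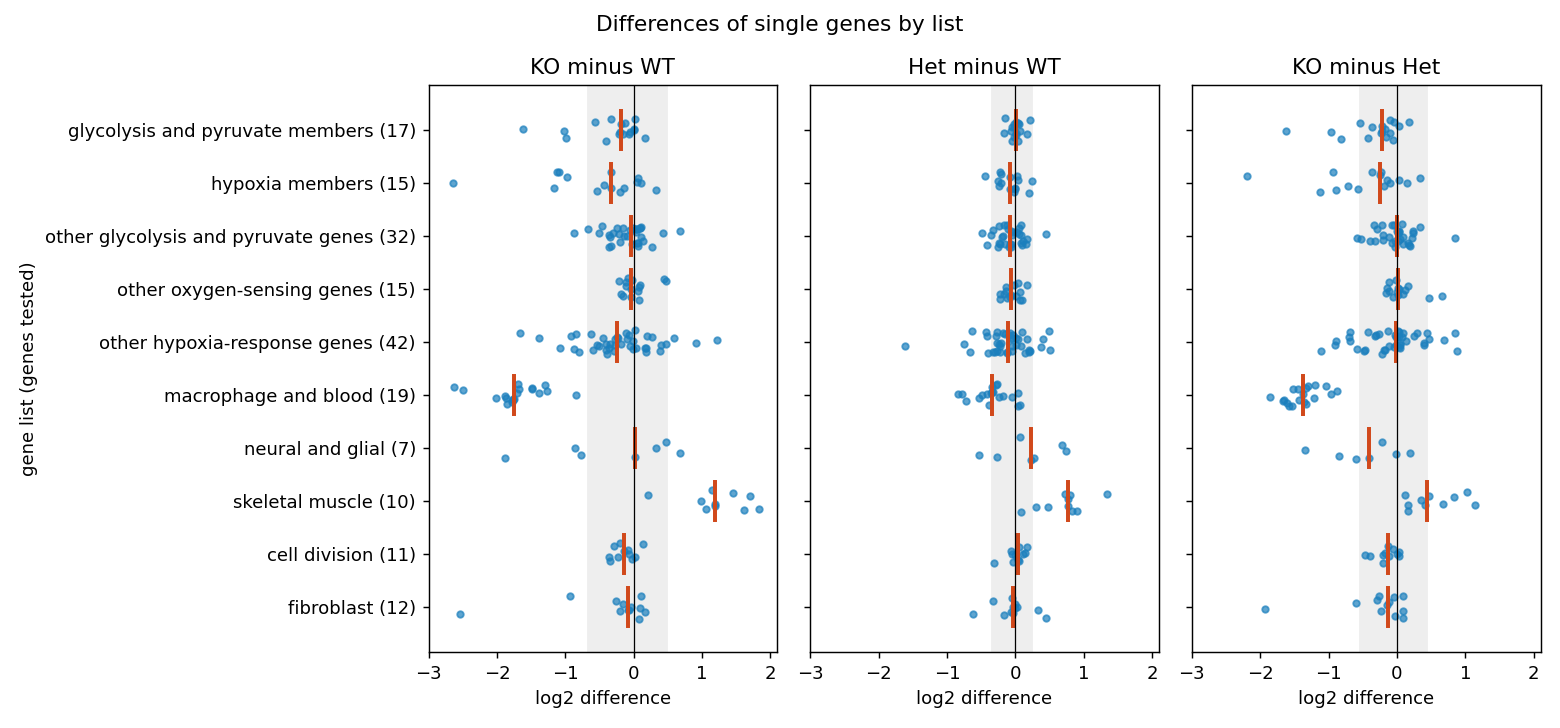
Each point is 1 gene, placed by its log2 difference in each comparison; red bars are list medians, the number of genes tested stands in brackets, and the grey band spans the 5th to 95th percentile of all 12962 genes. In KO minus WT the hypoxia members have a median of -0.33 and the other oxygen-sensing genes one of -0.04, beside -1.75 for the macrophage markers.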

How the data were processed

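RNA of 3 MEF lines was hybridised to 9 Affymetrix arrays, 3 per line. The authors deposited values on a log2 scale for 45101 probe sets; their range of 3.25 to 15.1 was the ground for reading them as log2. Per the submitters' processing notes GCOS and Partek were used; background correction, normalization and summarization: not given in the sources used here. No normalization was added, since the medians of the arrays differed little (6.87 to 6.95).

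The 64 control probe sets were left out, as was the lowest 40% of the rest by mean over all arrays (below 6.22). Genes were named from the platform annotation where a probe set had 1 symbol, and the probe set with the highest mean stood for the gene, which left 12962 genes. Lines were compared with limma 3.58.1 (lmFit, eBayes) in R 4.3.3 on all 9 arrays, with Benjamini-Hochberg adjustment over all genes; single probe sets were fitted among all probe sets. On data simulated for KO against WT over 12962 genes, 66% of 50 genes changed by 1 on the log2 scale and 100% of those changed by 1.5 were called, and 0% of the unchanged genes. A change of 1 is the 2-fold cut itself. The simulation left 12762 genes unchanged, where 53.1% of genes passed the adjusted p in the data. With 1 line per genotype it gives no rate of false calls for genotype. Values are given per array for called members, for Hif1a, Epas1, Egln1, Gapdh, Pdk1, Vegfa and Oga, and for the members of each role with the largest differences. Of other lists, called genes or the largest differences are named. Members and lists were chosen with earlier results of these data known. Arrays give no read depth, and their number limits the precision.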

Additional observations from a re-analysis of the deposited data

How the results depend on the processing

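The member counts were recomputed with quantile normalization, median centring, other filters, other choices of probe set, a 1.5-fold minimum, only the lines compared, a trended and robust variance, a replicate block and each array left out. Called lower in KO against WT were 4 to 8 members over these settings (4 where the filter at 60% removed Ankrd37 and Car9), and 0 were called higher. Slc16a3 (-0.99) fell short of 2-fold with quantile normalization. The 1.5-fold minimum added Pdk1 (-0.98) and Egln3 (-0.97). The most variable probe set added Pdk1 (-1.36) and Hif1a (-1.05). The cause of the remaining shifts was not tested. The member median of KO against WT was -0.26 with quantile normalization and -0.29 with the most variable probe set. For Het against WT it was -0.055 both with median centring and with the most variable probe set, and ran from -0.049 to 0.020 over left-out arrays, while 7 to 11 members passed. For KO against Het the median was -0.26 with quantile normalization and -0.17 with median centring, and 8 members passed a 1.5-fold minimum. With the replicate number as a block 23, 11 and 25 members passed in KO against WT, Het against WT and KO against Het, and no call at 2-fold changed. Arrays of the same number correlated at -0.18 to 0.21 in their deviations, and arrays of other numbers at -0.25 to 0.22. No pairing by number was seen in these values. With 1 line per genotype, neither these settings nor more arrays measure the spread between embryos.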

Other observations

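Some genes of the same pathways stood higher in the KO line while most members were lower. The muscle enolase gene Eno3 rose by 0.68 in KO and by 0.44 in Het against WT, where skeletal muscle markers had medians of 1.19 and 0.77; the other muscle isozyme on the list, Pgam2, did not pass (0.11 in KO). Pdk4, a kinase of the same family as Pdk1 that starvation induces, rose by 0.43 in KO and fell by 0.42 in Het, so that Het was lowest for Pdk4 and KO for Pdk1. Among hypoxia-response genes, Car12, a carbonic anhydrase like Car9, rose by 0.91 in KO and by 0.51 in Het, and the receptor gene Flt1 rose by 0.47 in KO and fell by 0.41 in Het. These genes were singled out after their values were seen.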
